A study of Mus musculus with 6 samples.

Results

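The Reg family lectins Reg1, Reg3a, Reg3b, Reg3g and Reg4 were followed in single cells of mouse intestinal organoids. The 5 genes were taken by symbol from a gene list of 55335 entries, and each was detected in all 6 libraries. A further pair of family members, Reg2 and Reg3d, was on the gene list too and is given for comparison. All organoids came from C57BL/6 wild type mice of 8 weeks and were grown from single cells in a medium with EGF, Noggin and R-spondin. Wnt3a-conditioned medium, the ROCK inhibitor Y-27632 and the GSK3 inhibitor CHIR99021 were present in all groups up to day 3. The groups at day 4, or 96 h, were an RXR antagonist (a dose of 5 in the labels, whose unit is written μm), all-trans retinoic acid (a dose of 10 in the same unit), a vitamin A-free medium and the DMSO vehicle, with 1 library each. The group at day 1, or 24 h, was the DMSO vehicle with 2 libraries. Compounds were given at day 0 and again at day 3, and whether the vitamin A-free cultures received DMSO is not given in the sources used here. The organoids came from 2 mice, but the mouse behind each library is not given, so the p-values below measure only the spread between the pair of day-1 libraries.

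Reg proteins are small secreted proteins with a C-type lectin fold. In the mouse intestine Reg3b and Reg3g are antimicrobial lectins of the epithelium, Reg3g binds peptidoglycan of Gram-positive bacteria, and their transcription is known to respond to microbes through MyD88 and to IL-22 through STAT3. Reg1 was first described in regenerating islets of the rat pancreas, and Reg4 marks enteroendocrine cells and the deep crypt secretory cells of the colon. The RXR antagonist targets the retinoid X receptors, the common partners of the retinoic acid, vitamin D and other nuclear receptors. Organoids hold epithelium without added microbes, and transcripts of immune cells were nearly absent from these libraries (5 marker genes, at most 2.12 CPM in sum).

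By the GENCODE M21 annotation of GRCm38, 4 of the 5 genes lie close together on chromosome 6. Reg3b (ENSMUSG00000071356.7) is at chr6:78370657-78373466 on the plus strand, Reg3a (ENSMUSG00000079516.2) at chr6:78380709-78383827 on the plus strand and Reg1 (ENSMUSG00000059654.7) at chr6:78422711-78428667 on the plus strand. Reg3g (ENSMUSG00000030017.2) is at chr6:78466269-78468872 on the minus strand. With Reg2 and Reg3d these genes make up 6 genes within 98.2 kb. Reg4 (ENSMUSG00000027876.4) lies apart at chr3:98222156-98236748 on the plus strand. The 120 bases before the RefSeq start of each gene (GRCm38.p6) are printed on the gene's own strand, because they show which promoters resemble each other. Capitals mark the letters TATAAA in Reg1, Reg3b and Reg3g and the letters AGATAA in Reg4, a motif that Gata4 and its relatives bind.
Reg1: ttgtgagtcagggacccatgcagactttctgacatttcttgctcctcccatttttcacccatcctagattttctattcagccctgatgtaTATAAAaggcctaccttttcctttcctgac
Reg3a: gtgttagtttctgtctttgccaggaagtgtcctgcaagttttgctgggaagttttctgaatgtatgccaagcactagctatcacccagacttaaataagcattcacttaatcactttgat
Reg3b: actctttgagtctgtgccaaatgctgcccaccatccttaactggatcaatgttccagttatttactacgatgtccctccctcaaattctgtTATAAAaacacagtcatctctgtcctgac
Reg3g: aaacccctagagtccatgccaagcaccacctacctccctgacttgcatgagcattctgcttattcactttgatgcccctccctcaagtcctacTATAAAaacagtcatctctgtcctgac
Reg4: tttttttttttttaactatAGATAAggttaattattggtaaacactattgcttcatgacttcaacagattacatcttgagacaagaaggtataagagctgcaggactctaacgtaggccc
The windows are chr6:78425863-78425982 for Reg1, chr6:78380589-78380708 for Reg3a, chr6:78370765-78370884 for Reg3b, chr6:78468875-78468994 for Reg3g and chr3:98222036-98222155 for Reg4. The Reg1 and Reg3b windows lie inside the annotated genes, since GENCODE begins both genes upstream of the RefSeq starts used here.

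The Reg3b and Reg3g promoters were the most alike. They were 70.5% identical over 120 bases and shared a run of 20 bases that ends directly before the start. The other pairs of the 7 family promoters were 41.7% to 58.6% identical, with shared runs of 6 to 12 bases. TATAAA began at position -30 in Reg1, -29 in Reg3b and -27 in Reg3g on the gene's strand, and was not found on that strand in Reg3a or Reg4 between 250 bases before and 50 after the start. The same letters on either strand occurred in 13.6% of 32851 RefSeq promoters of that length. The STAT letters TTCNNNGAA were found in Reg3b at position -129 and in Reg3d at -238, and in 8.30% of all promoters. The letters AGGTCA, bound by many nuclear receptors, were found in Reg3d alone, at -181, against 16.3% of all promoters. AGATAA was found in Reg4 alone, at -101, against 11.2% of all promoters. TATAAA also lay on the opposite strand in Reg1 and Reg3g. None of these motifs overlapped another in these windows, both strands were searched, and a match is a description of letters only.

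Because the genes are paralogs, the transcripts that the counting had to tell apart were compared. The closest pair, Reg3b and Reg3g, was 67.7% identical over the longest protein-coding transcript and 56.5% identical over its last 300 bases, where tags of a 3-prime library lie. Reg3a was 66.9% identical to Reg3b and 63.0% to Reg3g. Reg1 was 48.0% to 51.1% identical to the Reg3 genes listed here, and Reg4 was 40.2% to 46.8% identical to the other 6 genes. Stretches of 31 identical bases were shared by a single pair, Reg3b and Reg3g, which had 5 of them, and 0 of these lay in the last 300 bases. How the submitters treated a read that fits more than 1 gene is not given in the sources used here.

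After removal of doublets the libraries held 3468 cells under the RXR antagonist, 5135 under retinoic acid, 4766 in vitamin A-free medium, 4604 under the day-4 vehicle, and 5327 and 5079 under the day-1 vehicle. Their depth was 47258161 to 62567817 UMIs, and the median per cell was 9968 to 13365.5 UMIs. Levels are the UMIs of all kept cells of a library scaled to the library's total, as CPM. Pairs of libraries shared 1 to 16 cell barcodes. In such sums, fewer cells of a type and less RNA per cell cannot be told apart. The 12 enterocyte markers summed to 6193 CPM under the antagonist, 116278 under retinoic acid, 30768 in vitamin A-free medium, 47726 under the day-4 vehicle, and 6755 and 12102 under the day-1 vehicle. Exact Poisson or binomial intervals given below cover counting error only.

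Under the RXR antagonist, Reg1 and all 3 Reg3 genes were far lower than under the day-4 vehicle, and Reg3a was almost absent. With 1 library each there is no test, and the values describe these libraries. Reg1 was at 40.1 CPM under the antagonist, against 624 CPM under the vehicle. That is 15.6-fold lower, with a counting interval of 14.8 to 16.3, and a single cell carried 554 of the 1897 Reg1 UMIs of the antagonist library. Without that cell the level there was 28.4 CPM. Reg3a was at 0.127 CPM, or 6 UMIs in 6 cells, under the antagonist, against 147 CPM, or 7363 UMIs, under the vehicle. The antagonist level was thus 1159-fold lower, with an interval of 532 to 3159. Reg3b was at 5.84 CPM under the antagonist and 45.3 CPM under the vehicle, a ratio of 0.129 (0.113 to 0.146). Reg3g was at 3.83 CPM under the antagonist and 89.9 CPM under the vehicle, a ratio of 0.0426 (0.0365 to 0.0495). Reg4 stood apart from the other members, with 11.1 CPM under the antagonist and 20.0 CPM under the vehicle, a ratio of 0.558 (0.501 to 0.620). A single cell held 28.3% of the antagonist library's Reg4 UMIs and another held 28.0% of the vehicle library's.

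**Figure D1:**
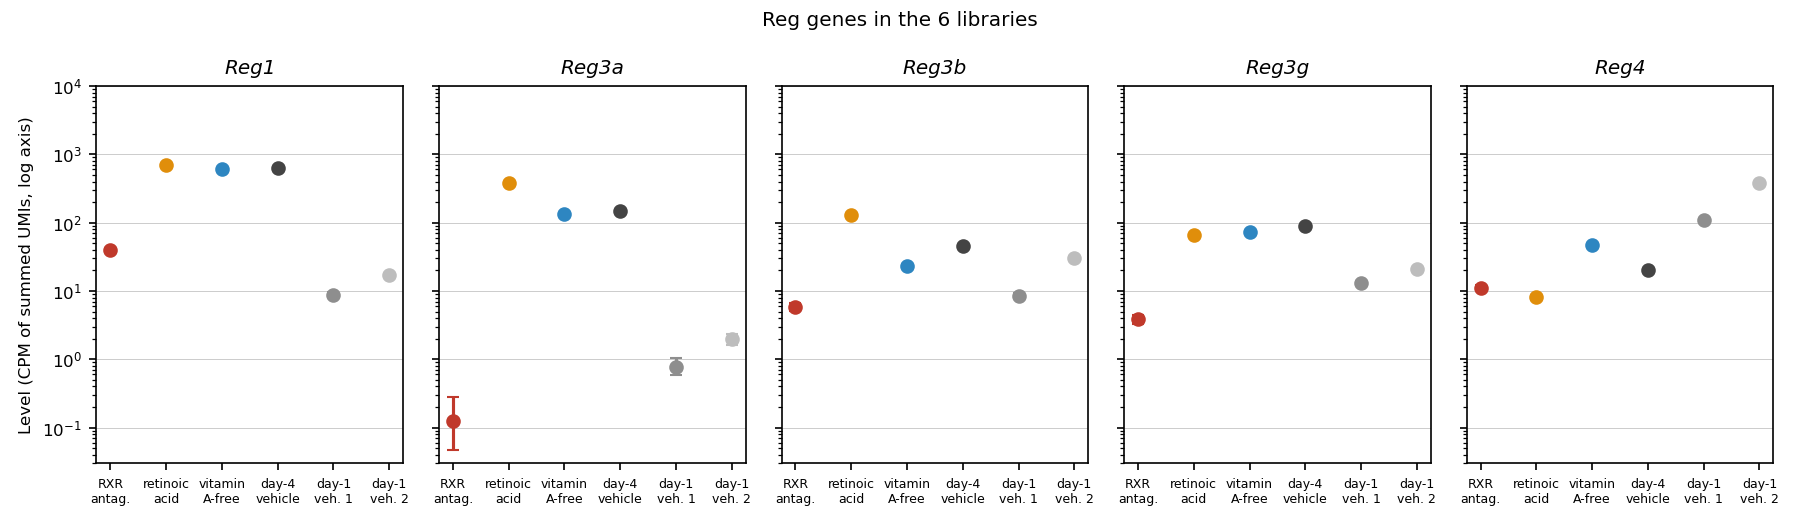
Level of each Reg gene in each library, as CPM of summed UMIs on a log axis, with 1 point per library and exact 95% Poisson bars that are mostly smaller than the points. Reg3a lies at 0.127 CPM under the antagonist, against 147 CPM under the day-4 vehicle, and Reg4 is highest in the 2 day-1 libraries at 109 and 386 CPM.

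By the size rule used for all genes, at least 2-fold on log2(CPM + 5) with 10 CPM in 1 of the 2 libraries, 4 of the 5 Reg genes were lower under the antagonist and 0 were higher. The rule placed 8.38% of 8387 genes lower and 6.92% higher. The median log2 ratio was -3.43 over the 5 members and 0.01 over all genes measured. The enterocyte markers, which move with this result, were at 6193 CPM in sum under the antagonist, with 2 of 12 genes at 0, against 47726 CPM and 0 genes at 0 under the vehicle, and their part in it was not tested.

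Retinoic acid gave the highest levels of Reg3a and Reg3b of any library. Reg3a was at 381 CPM under retinoic acid, against 147 CPM under the vehicle, a ratio of 2.59 (2.52 to 2.66). Reg3b was at 131 CPM under retinoic acid, against 45.3 CPM under the vehicle, a ratio of 2.89 (2.75 to 3.02). Both were past the 2-fold rule, which placed 2.80% of 7976 genes higher and 5.24% lower, and 0 members were lower by it. The other members differed from these. Reg1 was at 688 CPM under retinoic acid and 624 CPM under the vehicle, a ratio of 1.10 (1.09 to 1.12). Reg3g was at 65.5 CPM under retinoic acid and 89.9 CPM under the vehicle, a ratio of 0.729 (0.698 to 0.760). Reg4 was at 8.02 CPM under retinoic acid and 20.0 CPM under the vehicle, a ratio of 0.402 (0.360 to 0.448), and 1 cell held 239 of its 486 UMIs under retinoic acid.

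The median of all genes in this comparison was at a log2 ratio of -0.27. The median over the 5 members was 0.14. With TMM factors the Reg3a log2 ratio was 1.74 in place of 1.34, that of Reg3b 1.82 in place of 1.43, and that of Reg3g -0.05 in place of -0.43. Reg3g was thus lower by library totals and nearly even with TMM factors, while Reg3a and Reg3b were past 2-fold under both scalings.

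Against retinoic acid, the antagonist library was lower for the same 4 genes that were lower against the vehicle. The level under the antagonist divided by that under retinoic acid was 0.0584 for Reg1, 0.000333 for Reg3a, 0.0447 for Reg3b and 0.0585 for Reg3g. Reg4 was at 11.1 CPM under the antagonist and 8.02 CPM under retinoic acid, a ratio of 1.39 (1.22 to 1.57). The 2-fold rule placed 9.12% of 8191 genes lower and 13.3% higher, with 4 of 5 members lower and 0 higher. The antagonist library serves in both comparisons, so these values are not independent of those against the vehicle. The median log2 ratio was -3.65 over the members and 0.33 over all genes.

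In vitamin A-free medium most members were close to the vehicle, and Reg4 was higher. Reg4 was at 46.9 CPM in vitamin A-free medium and 20.0 CPM under the vehicle, a ratio of 2.35 (2.18 to 2.53). It was 1 of the 15 genes past 2-fold higher, which are 0.183% of 8180 genes, and 0.196% were lower. With TMM factors its log2 ratio was 0.93 in place of 1.06, which is under 2-fold. Reg1 was at 607 CPM in vitamin A-free medium and 624 CPM under the vehicle, and Reg3a was at 132 CPM in vitamin A-free medium and 147 CPM under the vehicle. Reg3g was at 72.1 CPM in vitamin A-free medium and 89.9 CPM under the vehicle. Reg3b differed more, with 23.3 CPM in vitamin A-free medium and 45.3 CPM under the vehicle, a ratio of 0.513 (0.477 to 0.551). The median log2 ratio was -0.15 over the members and 0.08 over all genes.

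At day 4 relative to day 1 under the vehicle, Reg1, Reg3a and Reg3g rose and Reg4 fell. This comparison has 2 libraries at day 1 and was tested with edgeR's quasi-likelihood test over 17592 genes with Benjamini-Hochberg adjustment, on the assumption that the lone day-4 library varies like the day-1 pair. Reg3a was at 147 CPM at day 4, against 0.783 and 1.96 CPM at day 1, and its log2 fold change was 6.93 (SE 0.42, adjusted p = 0.000827 by edgeR). Reg1 was at 624 CPM at day 4, against 8.81 and 17.3 CPM at day 1, with a log2 fold change of 5.76 (SE 0.38, adjusted p = 0.000935 by edgeR). For both genes the day-4 library lay far outside the day-1 pair. Reg3g was at 89.9 CPM at day 4, against 12.9 and 20.8 CPM at day 1, with a log2 fold change of 2.59 (SE 0.27, adjusted p = 0.00240 by edgeR). Reg4 was at 20.0 CPM at day 4, against 109 and 386 CPM at day 1, and its log2 fold change was -3.45 (SE 0.78, adjusted p = 0.0196 by edgeR). The Reg4 call was lost when genes of low count were left in the test (adjusted p = 0.0687 by edgeR).

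Reg3b did not pass, with 45.3 CPM at day 4 against 8.53 and 30.7 CPM at day 1 and a log2 fold change of 1.39 (SE 0.62, adjusted p = 0.136 by edgeR). The pair of day-1 libraries differed widely for Reg3b and for Reg4, and both genes were higher in library 2. On the log2(CPM + 5) scale the Reg4 difference was -3.97 without day-1 library 1 and -2.20 without day-1 library 2. The Reg3b difference on that scale was 0.49 without library 1 and 1.89 without library 2. Of all genes tested, 17.3% rose and 16.9% fell, so calls in this comparison are common. The enterocyte markers summed to 47726 CPM at day 4, against 6755 and 12102 CPM at day 1, and the enteroendocrine markers to 384 CPM at day 4, against 1171 and 4065 CPM at day 1. Their part in these results was not tested. The 3 members that rose and the 1 that fell were among 5 tested, and the median log2 fold change was 2.59 over the members and -0.03 over all genes.

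The remaining family members were near the limit of detection. Reg3d had 0 UMIs under the antagonist, 80 under retinoic acid, 29 in vitamin A-free medium, 30 under the day-4 vehicle, and 0 and 1 under the day-1 vehicle. Its level under retinoic acid was 2.20 times that under the vehicle (1.43 to 3.47). Reg2, a gene known mainly from the pancreas, had 0 to 5 UMIs in each library.

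Under retinoic acid, in vitamin A-free medium and under the day-4 vehicle, Reg1 UMIs were more concentrated in few cells than Reg3a UMIs. Both genes were nevertheless found in similar shares of cells in vitamin A-free medium and under the day-4 vehicle. To compare shares of cells across depths, each cell was thinned to 5000 UMIs, which left out 182 to 603 shallower cells per library. Reg3a was then found in 0 of 3240 cells under the antagonist (exact upper 95% bound 0.114%), 54.2% of cells under retinoic acid, 22.1% in vitamin A-free medium and 23.6% under the day-4 vehicle. In the day-1 libraries the share was 0.540% and 0.804%. Without thinning the Reg3a shares were 0.173% under the antagonist, 66.2% under retinoic acid, 28.3% in vitamin A-free medium, 32.3% under the day-4 vehicle, and 0.751% and 1.81% under the day-1 vehicle. Reg3a UMIs should be lacking in enteroendocrine cells, and 0 of 46 thinned enteroendocrine-like cells in vitamin A-free medium and 0 of 39 under the day-4 vehicle had one, at median depths of 5168 and 5495 UMIs before thinning. In stem-like cells the thinned share was 1.18% under retinoic acid, 0.958% in vitamin A-free medium and 0.694% under the vehicle, at median depths of 11558, 11064.5 and 12081.5 UMIs.

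Reg1 was found in 2.22% of thinned cells under the antagonist, 26.7% under retinoic acid, 20.7% in vitamin A-free medium, 20.7% under the day-4 vehicle, and 1.79% and 3.40% under the day-1 vehicle. In stem-like cells the thinned Reg1 share was 3.08% under retinoic acid, 4.37% in vitamin A-free medium and 3.47% under the vehicle. The single cell with most Reg1 held 677 UMIs under retinoic acid, 420 in vitamin A-free medium and 757 under the day-4 vehicle. The 1% of cells with most Reg1 carried 92.0% of its UMIs under the antagonist, 36.1% under retinoic acid, 33.6% in vitamin A-free medium and 39.5% under the vehicle. For Reg3a the same top cells carried 8.07% under retinoic acid, 20.3% in vitamin A-free medium and 19.9% under the vehicle.

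Reg3b was found in 0.648% of thinned cells under the antagonist, 23.5% under retinoic acid, 4.14% in vitamin A-free medium and 5.57% under the day-4 vehicle, and in 1.66% and 3.55% under the day-1 vehicle. Of Reg3b UMIs, the top 1% of cells held 23.3% under retinoic acid, 63.9% in vitamin A-free medium and 59.3% under the vehicle. These shares were above those of Reg3a in the same libraries. Reg3g was found in 1.02% of thinned cells under the antagonist, 17.9% under retinoic acid, 15.6% in vitamin A-free medium and 20.1% under the day-4 vehicle. Its day-1 shares were 5.19% and 6.93%. Reg3g was thus the member detected in most day-1 cells in library 1, and Reg4 in library 2, at 7.42% of thinned cells. Reg4 was found in 0.494% under the antagonist, 0.371% under retinoic acid, 2.57% in vitamin A-free medium, 1.36% under the day-4 vehicle and 2.62% in day-1 library 1. Over all libraries, enteroendocrine-like cells had a median of 3700 UMIs, so thinning left out most of them and lowered the Reg4 shares. Without thinning, Reg4 was found in 5.63% and 13.6% of cells of the day-1 libraries, and Reg3g in 9.78% and 11.2%.

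The cells were clustered without the Reg genes, and 20 clusters held at least 50 cells. Clusters called stem-like, mitotic-like, regenerative-like, goblet- and Paneth-like or enteroendocrine-like had at least 3 markers of that type among their 10 leading genes. The 4 clusters called enterocyte-like had 0 to 2 of the 12 enterocyte markers among those genes and are named because 10 to 12 of the markers were higher than in all other cells, with median log2 ratios of 1.04 to 2.43. Other clusters go by their leading genes. The names were given after clustering these same cells, so levels by cluster are descriptions. Reg1, Reg3a, Reg3b and Reg3g were high in the same few clusters and Reg4 in others. The highest Reg1 level, 4899 CPM, was in a cluster of 335 enterocyte-like cells led by Slc40a1, Papss2 and Slc13a1, all from the retinoic acid library. Slc40a1 encodes the iron exporter ferroportin. Reg3a reached 574 CPM and Reg3b 160 CPM in 2826 enterocyte-like cells of the retinoic acid library led by Gda, Akr1b7 and Cyp4a10. Reg1 there was at 360 CPM, so the clusters highest in Reg1 and in Reg3a differed. At the coarser Leiden resolution of 0.5, Reg1 was highest at 1099 CPM, in a cluster led by Ctrb1, Rdh7 and Clec2e, and Reg3a at 491 CPM, in a cluster led by Akr1b7, Cyp4a10 and Acaa1b.

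Further enterocyte-like cells formed a cluster of 1163 cells of the retinoic acid library led by Fabp6, the ileal bile acid binding protein, and a cluster of 2099 cells led by Ctrb1, Ces1d and Apoc3. The Fabp6 cluster had 710 CPM of Reg1, 225 CPM of Reg3a, 134 CPM of Reg3b and 127 CPM of Reg3g. The Ctrb1 and Ces1d cluster had 1438 CPM of Reg1, 387 CPM of Reg3a, 84.6 CPM of Reg3b and 129 CPM of Reg3g, and its cells came from the retinoic acid library (2), the vitamin A-free library (773) and the day-4 vehicle library (1324). Reg3g spread most evenly over the high clusters and was highest, at 133 CPM, in an unnamed cluster of 3154 cells led by Ctrb1, Rbp7 and St3gal4. The antagonist and day-1 libraries had 0 cells in the enterocyte-like clusters.

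**Figure D2:**
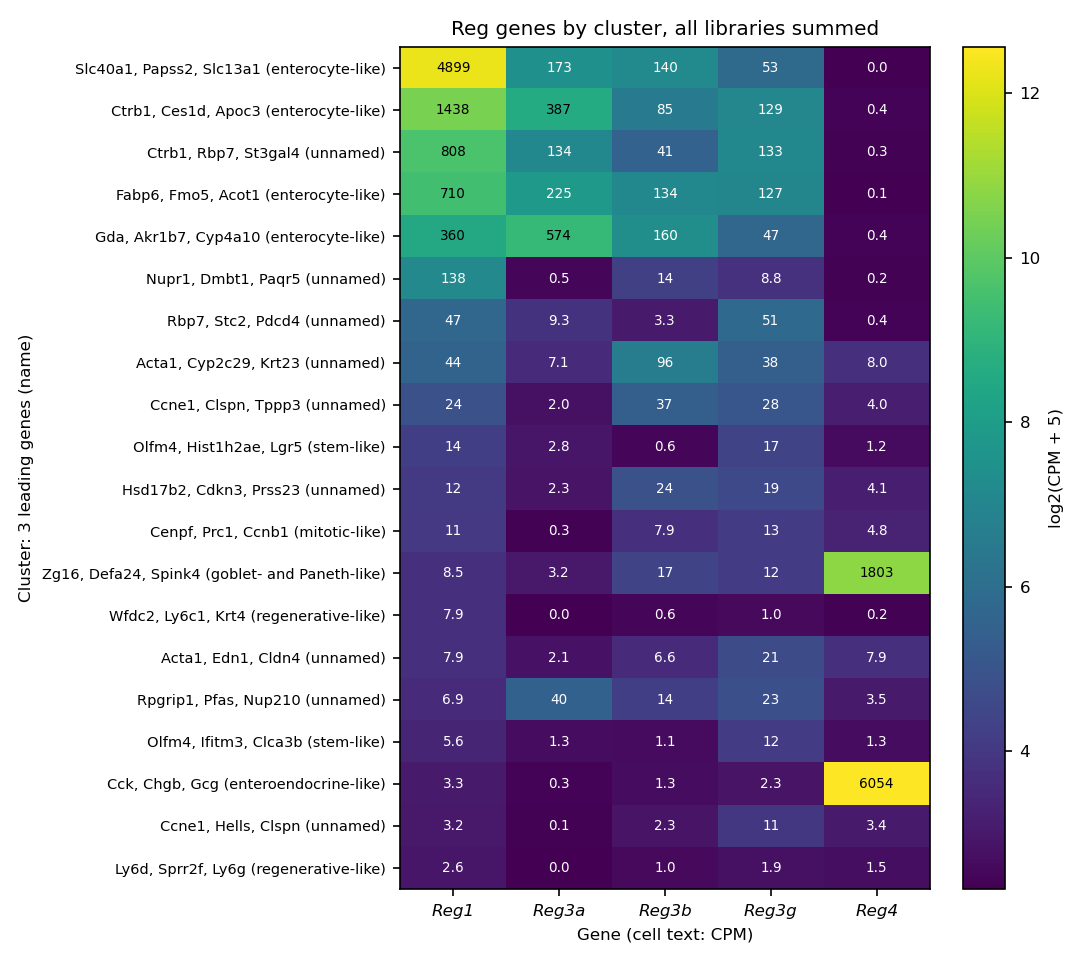
Levels of the 5 Reg genes in the 20 clusters of at least 50 cells, all libraries summed, with CPM printed in each cell and log2(CPM + 5) as colour. Reg1 and the Reg3 genes share the upper rows, while Reg4 is high in the enteroendocrine-like cluster (6054 CPM) and the goblet- and Paneth-like cluster (1803 CPM).

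In the antagonist library, an unnamed cluster of 1008 cells led by Nupr1, Dmbt1 and Paqr5 held 94.1% of the Reg1 UMIs. That cluster had 138 CPM of Reg1, 14.2 CPM of Reg3b, 8.80 CPM of Reg3g and 0.463 CPM of Reg3a. Reg1 was found in 8.23% of its cells, and the level rests on few of them. In the antagonist library a single cell held 554 of 1897 Reg1 UMIs, and the 1% of cells with most Reg1 held 92.0%. The largest cluster of regenerative-like cells, 1941 cells led by Ly6d, Sprr2f and Ly6g, had 2.6 CPM of Reg1 and 0 UMIs of Reg3a. At day 1, an unnamed cluster of 1339 cells led by Acta1, Cyp2c29 and Krt23 had the highest Reg3b level, with 79.7 CPM in library 1 and 103 CPM in library 2. It held 411 cells of library 1 and 911 cells of library 2, and 45.7% and 50.9% of their Reg3b UMIs. The Reg3b level within the cluster thus differed less between the day-1 libraries than the level over all cells, which was 8.53 and 30.7 CPM.

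An unnamed cluster of 315 cells led by Rpgrip1, Pfas and Nup210 stood out by its low median of 2368 UMIs per cell and had 40.4 CPM of Reg3a. Over the day-4 libraries the enterocyte-like clusters held 99.2% of Reg3a UMIs under retinoic acid, 56.7% in vitamin A-free medium and 80.3% under the vehicle. For Reg1 these shares were 99.3% under retinoic acid, 43.7% in vitamin A-free medium and 72.1% under the vehicle. For Reg3g they were 89.8% under retinoic acid, 27.7% in vitamin A-free medium and 49.4% under the vehicle, so more of Reg3g lay outside the clusters so named. The unnamed cluster led by Ctrb1, Rbp7 and St3gal4, which was highest in Reg3g, is not counted among them. In it 7 of 12 enterocyte markers were higher than in all other cells, 1 of them at least 2-fold. Enterocyte-like cells made up 84.2% of cells under retinoic acid, 16.2% in vitamin A-free medium and 28.8% under the vehicle.

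Within enterocyte-like cells, retinoic acid and the vehicle were set side by side, although different clusters held most of these cells: those led by Fabp6, Gda and Slc40a1 under retinoic acid, and that led by Ctrb1, Ces1d and Apoc3 under the vehicle. Reg1 was at 808 CPM in the 4326 enterocyte-like cells of the retinoic acid library and 1406 CPM in the 1324 of the vehicle library, a ratio of 0.575 (0.566 to 0.584). Reg3g was at 69.6 CPM under retinoic acid and 139 CPM under the vehicle, a ratio of 0.502 (0.476 to 0.529). So Reg1 and Reg3g were lower per enterocyte-like UMI under retinoic acid, while the library as a whole held more enterocyte-like cells. The ratios within enterocyte-like cells are by totals. TMM factors, with which Reg3g was nearly even over all cells, were not applied within them. Reg3a was at 447 CPM in these cells under retinoic acid and 369 CPM under the vehicle, a ratio of 1.21 (1.18 to 1.25). Reg3b was at 152 CPM under retinoic acid and 104 CPM under the vehicle, a ratio of 1.46 (1.39 to 1.54). For Reg3a and Reg3b both ratios were under the 2.59 and 2.89 found over all cells.

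In an unnamed cluster led by Rbp7, Stc2 and Pdcd4, Reg3g was at 109 CPM in 174 cells of the retinoic acid library and 29.6 CPM in 339 cells of the vehicle library. Its direction there was thus opposite to that in enterocyte-like cells. Reg3g was also higher under retinoic acid in stem-like and in goblet- and Paneth-like cells. Without the highest cell of each library, it was at 19.9 CPM under retinoic acid and 11.3 CPM under the vehicle in stem-like cells. In goblet- and Paneth-like cells, 108 under retinoic acid and 160 under the vehicle, these levels were 23.2 CPM and 8.49 CPM. They rest on few cells and compare different sub-clusters between libraries, as given below for Reg4.

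**Figure D3:**
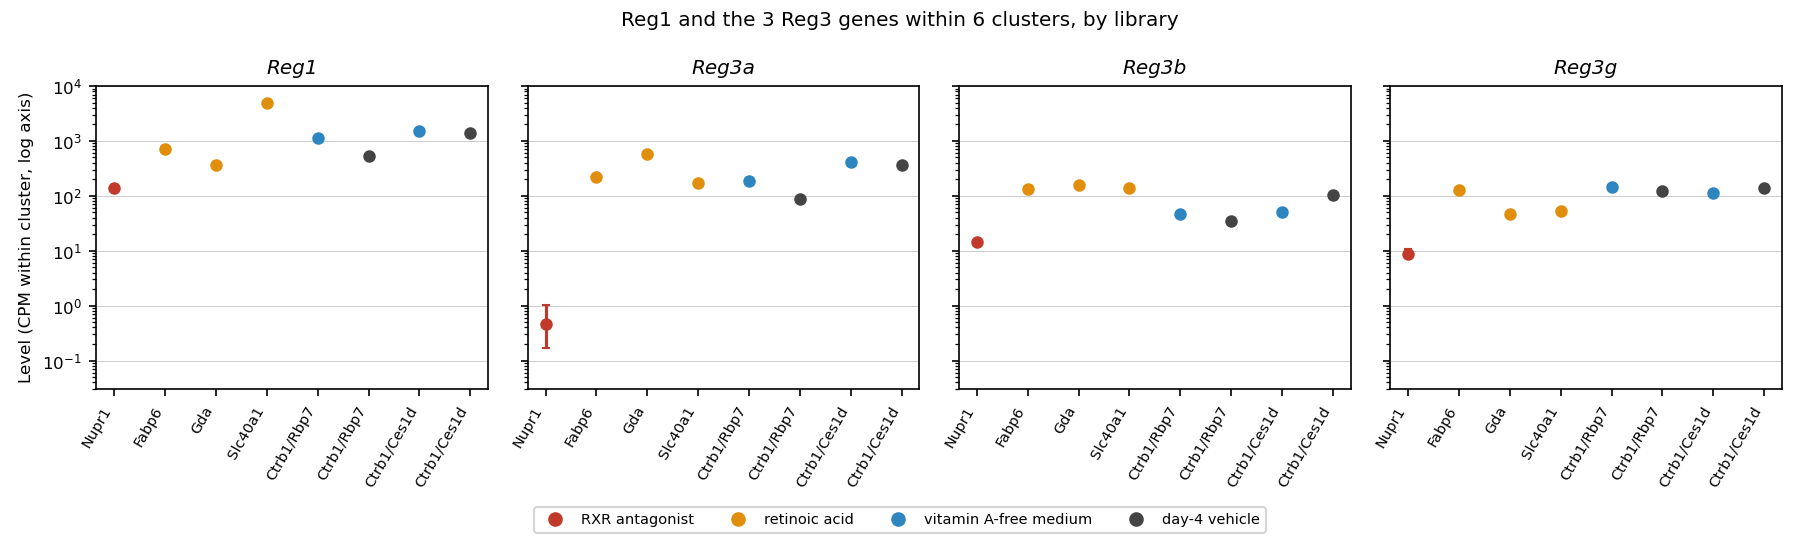
Levels of Reg1 and the 3 Reg3 genes within 6 clusters, each named by 1 or 2 leading genes, as CPM within the cluster on a log axis, coloured by library and with exact 95% Poisson bars that are mostly smaller than the points. Under the antagonist the Nupr1 cluster lies lowest for all 4 genes, with Reg3a at 0.463 CPM, and in the Ctrb1/Rbp7 cluster Reg1 lies at 1124 CPM in vitamin A-free medium and 524 CPM under the vehicle.

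Vitamin A-free medium and the vehicle shared their clusters, so their levels were set side by side within each. The ratios depend on where the lines between clusters fall, and they were not recomputed at the coarser Leiden resolution. In the cluster led by Ctrb1, Rbp7 and St3gal4, Reg1 was at 1124 CPM in 1518 vitamin A-free cells and 524 CPM in 1632 vehicle cells, a ratio of 2.14 (2.09 to 2.20). Reg3a there was at 187 CPM in vitamin A-free medium and 87.2 CPM under the vehicle, also a ratio of 2.14 (2.01 to 2.29). Reg3g was at 143 CPM in vitamin A-free medium and 123 CPM under the vehicle in this cluster. Reg3b was at 47.5 CPM in vitamin A-free medium and 35.2 CPM under the vehicle there, a ratio of 1.35 (1.21 to 1.51). Thus Reg1 and Reg3a were higher in this cluster in vitamin A-free medium although their levels over all cells were close. In the enterocyte-like cluster led by Ctrb1, Ces1d and Apoc3, Reg1 was at 1496 CPM in vitamin A-free medium and 1406 CPM under the vehicle, and Reg3a was at 421 CPM in vitamin A-free medium and 369 CPM under the vehicle. Reg3b in that cluster was at 50.02 CPM in vitamin A-free medium and 104 CPM under the vehicle, a ratio of 0.483 (0.433 to 0.537), close to the ratio over all cells and opposite in direction to that in the Ctrb1 and Rbp7 cluster. The whole-library ratio for Reg1, 0.972, combines these clusters with fewer enterocyte-like cells in vitamin A-free medium.

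Reg4 followed the secretory cells. The enteroendocrine-like and the goblet- and Paneth-like clusters together held 1787 cells, or 6.30% of all, and 98.0% of Reg4 UMIs, with 91.8% to 98.3% per library. In the goblet- and Paneth-like cluster Reg4 was at 68.0 CPM under the antagonist, 78.9 CPM under retinoic acid, 996 CPM in vitamin A-free medium, 518 CPM under the day-4 vehicle, and 3025 and 4872 CPM under the day-1 vehicle. Against the vehicle in these cells, the antagonist was 7.62-fold lower (6.09 to 9.64), retinoic acid 6.57-fold lower (5.24 to 8.32) and vitamin A-free medium at a ratio of 1.92 (1.76 to 2.10). Without the highest cell of each library, the antagonist was 10.3-fold lower and retinoic acid 9.93-fold lower. The number of such cells was 127 under the antagonist, 108 under retinoic acid, 234 in vitamin A-free medium, 160 under the day-4 vehicle, and 147 and 283 under the day-1 vehicle. The day-4 vehicle was 5.84-fold lower than day-1 library 1 and 9.40-fold lower than library 2.

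The share of goblet- and Paneth-like cells with a Reg4 UMI after thinning was 11.5% under the antagonist, 13.8% under retinoic acid, 47.4% in vitamin A-free medium, 32.6% under the day-4 vehicle, and 81.0% and 94.9% under the day-1 vehicle. In enterocyte-like cells, which should lack Reg4, that share was 0.0731% under retinoic acid, 0.396% in vitamin A-free medium and 0.0786% under the day-4 vehicle. Median depths before thinning were 5290 to 10078 UMIs in the goblet- and Paneth-like cells and 10938 to 12090 UMIs in the enterocyte-like cells. In the enteroendocrine-like cluster Reg4 was at 1010 CPM in 79 vitamin A-free cells and 1012 CPM in 55 day-4 vehicle cells, but these levels rest on few cells. Reg4 was found in 8 of the vitamin A-free cells, the highest with 197 of 421 UMIs, and in 6 of the vehicle cells, the highest with 280 of 307 UMIs. Without the highest cell of each library the level was 544 CPM in vitamin A-free medium and 91.0 CPM under the vehicle, so no direction is read from them. At day 1 the enteroendocrine-like level was 9816 CPM in 148 cells and 8321 CPM in 388 cells, so day 4 was 9.70-fold lower than library 1 and 8.23-fold lower than library 2. Without the highest cells it was 103-fold and 89.0-fold lower. The sub-cluster highest in Reg4, described below, held 52 and 124 cells of the day-1 libraries and 2 day-4 vehicle cells. These folds therefore compare different sub-clusters between the time points. The antagonist and retinoic acid libraries held 33 and 25 enteroendocrine-like cells, under the 50 set for a level, with 396 and 384 Reg4 UMIs.

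The secretory cells were clustered again to see which of them carried Reg4. A sub-cluster of 189 cells led by Afp, Tpbg and Trpa1 had 31742 CPM of Reg4 and 52.4% of all Reg4 UMIs, and 93.1% of its cells were from day 1. These cells also had 28213 CPM of Chga, the granule protein chromogranin A, 3517 CPM of Tph1, which makes serotonin, and 9543 CPM of Tac1, the precursor of substance P. Tph1 and Chga are textbook genes of the serotonin-producing enterochromaffin cell. Reg4 in this sub-cluster was alike in the day-1 libraries, with 34405 CPM in 52 cells of library 1 and 32638 CPM in 124 cells of library 2.

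Sub-clusters led by peptide hormone genes had few Reg4 UMIs. Reg4 was at 9.71 CPM in 135 cells led by Gcg and Pyy, the genes of proglucagon and peptide YY, and at 8.03 CPM in 66 cells led by Onecut3, Scg2 and Nts. Cells led by Gip and Sst (39 cells) had 5.15 CPM, and cells led by Ooep, Mboat4 and Zcchc12, with 22243 CPM of the ghrelin gene Ghrl (84 cells), had 2.82 CPM. Each of these 4 levels rests on 1 to 6 UMIs. In 170 cells led by Plod2, Msx1 and Neb, with 4036 CPM of Chga, 1484 CPM of Tph1 and 6582 CPM of Tac1, Reg4 was higher, at 476 CPM from 308 UMIs, and was found in 8.24% of the cells. It was at 78.2 CPM, from 21 UMIs, in 50 cells led by Nptx1, Neurog3 and Neurod2, a sub-cluster with the transcription factor gene of enteroendocrine progenitors, Neurog3. The 16 cells led by the tuft cell genes Rgs13, Lrmp and Dclk1 had 0 Reg4 UMIs, which allows up to 46.5 CPM (exact 95% bound).

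Among goblet- and Paneth-like cells, Reg4 was at 4927 CPM in 171 cells led by Psca, Acta1 and S100a6, of which 98.2% were from day 1, and at 4380 CPM in 219 cells led by Tppp3, Prc1 and Mki67, with 204 from day 1. The day-4 cells had their Reg4 elsewhere. A sub-cluster of 143 cells led by AY761184, Defa22 and Defa21, with 16691 CPM of the Paneth cell lysozyme gene Lyz1, had 2359 CPM of Reg4, and 3 of its cells were from day 1. It held 76 vitamin A-free and 46 vehicle cells, 18 retinoic acid cells and 0 antagonist cells, and 59.0% of the vitamin A-free library's Reg4 UMIs. Of the antagonist cells, 83 were in a sub-cluster led by Rgs2, Mptx1 and Fam71a with 121 CPM of Reg4, and 37 in one led by Sprr1a, Tff1 and Anxa10 with 0 UMIs. The levels of the whole goblet- and Paneth-like cluster therefore compare different sub-clusters between libraries. The Paneth markers summed to 313 CPM under the antagonist, 410 under retinoic acid, 1983 in vitamin A-free medium and 1145 under the day-4 vehicle, and their part in the Reg4 levels was not tested.

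**Figure D4:**
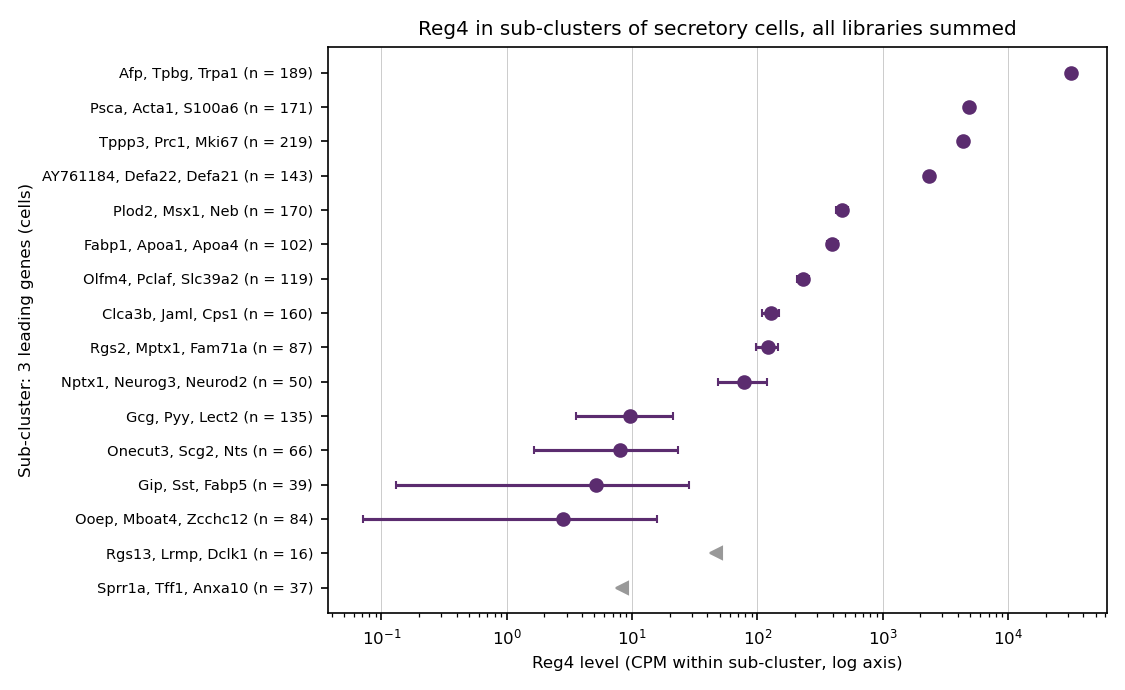
Reg4 level in 16 sub-clusters of secretory cells, all libraries summed, as CPM on a log axis with exact 95% Poisson bars, and grey arrows at the upper bound where 0 UMIs were found. The sub-cluster led by Afp, Tpbg and Trpa1 lies highest at 31742 CPM and those led by peptide hormone genes lie under 10 CPM.

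Cells with 1 of the Reg1 and Reg3 genes tended to hold another. After thinning to 5000 UMIs, cells with both genes of a pair were counted against the product of the 2 shares, which is 1 when detections are independent. For the 6 pairs of Reg1, Reg3a, Reg3b and Reg3g this ratio was 1.08 to 1.39 under retinoic acid, 2.05 to 3.24 in vitamin A-free medium and 1.79 to 2.86 under the day-4 vehicle. At day 1 it was 2.46 to 9.26, there from 2 to 46 shared cells. Under the antagonist 3 pairs had shared cells, 4 to 7 of them, and ratios of 8.18 to 18.7. Within enterocyte-like cells alone it was 0.966 to 1.35 under retinoic acid, 1.25 to 2.24 in vitamin A-free medium and 1.14 to 1.59 under the vehicle. In enterocyte-like cells, 76.1% of Reg3b cells under retinoic acid, 82.4% in vitamin A-free medium and 81.4% under the vehicle also had Reg3a.

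Reg4 was seldom in the same cells as the others. Its pairs had ratios of 0.0833 to 0.848 in the libraries other than the antagonist and day-1 library 1, from 1 to 10 shared cells. Thinning left out most enteroendocrine-like cells over all libraries. The exceptions rested on few cells too: Reg3b with Reg4 at 9.64 from 1 cell and Reg3g with Reg4 at 12.3 from 2 cells under the antagonist, and Reg3b with Reg4 at 1.43 from 3 cells in day-1 library 1.

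**Figure D5:**
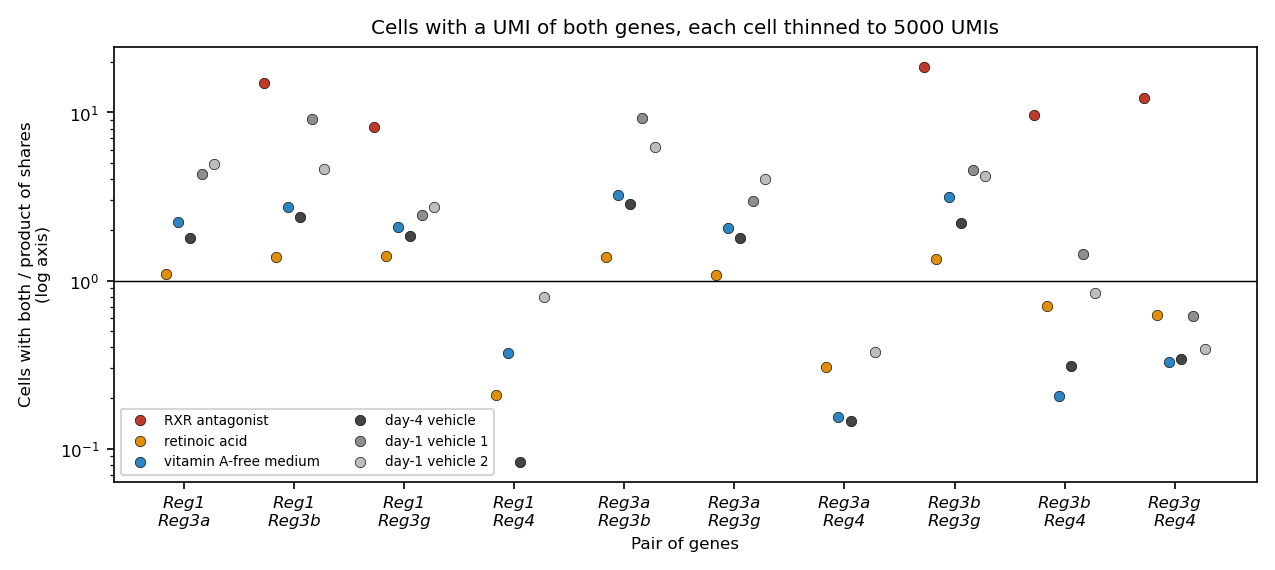
For each pair of Reg genes and each library, the number of thinned cells with both genes over the product of their shares, on a log axis with a line at 1; pairs with 0 shared cells are left out. Pairs among Reg1, Reg3a, Reg3b and Reg3g lie above 1 in each library shown, while pairs with Reg4 lie below 1 except for 3 points that rest on 1 to 3 cells. The points with Reg4 below 1 rest on 1 to 10 cells.

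Over 43 sums of a cluster within a library, each of at least 50 cells, the level of Reg1 was most like that of Ugt2b5 (Pearson r = 0.960 on log2(CPM + 5)), followed by Ces1f, Ugt2b36, Gramd3 and Bco2 at 0.935 to 0.918. Reg3a was most like Dpep1, a brush border dipeptidase (0.974), then Slc6a20a, Ugt2b5, Adh4 and Slc25a45 at 0.972 to 0.964. Reg3b had weaker neighbours, Cyp3a11 (0.852), Trim30d, Clec2h, Mme and Cyp3a25 (0.825). The genes nearest to Reg3g were Btnl1, a butyrophilin-like gene of the gut epithelium (0.884), Dgat1, Prpsap1, Arg2 and Fcgrt (0.875). Those nearest to Reg4 were Nuak1 (0.957), Clps, Mt3, Hepacam2 and Wnt3 (0.946). Among the members, r was 0.91 for Reg1 and Reg3a, 0.80 for Reg1 and Reg3g and 0.79 for Reg3a and Reg3g. Reg3b had r of 0.70 to 0.72 with these 3, and Reg4 had r of -0.55 to -0.31 with the other 4. The sums share libraries and cell types and are not independent, so these values describe likeness only.

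Among the genes measured in each pathway known to act on Reg3 transcription, at most 1 passed the 2-fold rule in any comparison at day 4. Genes under the 10 CPM floor, such as the IL-22 receptor gene Il22ra1 and Socs3, were left out there. Signalling through these pathways was not tested. Of 16 IL-22 and STAT3 signalling genes, 8 were measured in the antagonist comparison. Beside 6.92% of all genes higher and 8.38% lower, 1 was higher and 0 were lower. That gene was Fut2, a fucosyltransferase of the gut epithelium, with 39.2 CPM under the antagonist and 0.699 CPM under the vehicle. Stat3 was at 39.8 CPM under the antagonist, 28.4 under retinoic acid, 23.7 in vitamin A-free medium and 27.1 under the day-4 vehicle. Under retinoic acid 0 of 7 were higher and 1 was lower, beside 2.80% and 5.24% of all genes. The lower gene was the kinase gene Pim3, with 22.1 CPM against 49.4 CPM under the vehicle. In vitamin A-free medium 0 of 7 passed in either direction. Against retinoic acid the antagonist had 1 of 8 higher, again Fut2, beside 13.3% of all genes. Between day 4 and day 1, 4 of 13 rose and 0 fell, beside the 17.3% of all genes that rose. Among them, Socs3, the feedback inhibitor of STAT3, was at 7.65 CPM at day 4 and 3.02 and 3.46 CPM at day 1 (log2 fold change 1.42, SE 0.21, adjusted p = 0.00535 by edgeR).

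Of 17 microbe sensing genes, 7 or 8 were measured at day 4. Of these, 0 passed 2-fold in any of the 3 comparisons with the vehicle. Against retinoic acid, 1 of 8, Irak1, was higher under the antagonist, beside 13.3% of all genes. Genes under the 10 CPM floor, among them Tlr1, Tlr2, Tlr4 and Tlr5, were left out. Under the antagonist Tlr2 had 94 UMIs, Tlr4 83 and Tlr5 32, against 18, 1 and 7 under the day-4 vehicle. Tlr1 went the other way, with 3 UMIs against 19. The adaptor Myd88 was at 15.5 CPM under the antagonist, 11.8 under retinoic acid, 12.4 in vitamin A-free medium, 12.8 under the day-4 vehicle, and 17.2 and 14.7 under the day-1 vehicle. Between day 4 and day 1, where 17.3% of all genes rose and 16.9% fell, 2 of 14 rose and 0 fell. One was Ticam1, the adaptor of Toll-like receptor 3, with 23.7 CPM at day 4 and 8.28 and 11.1 CPM at day 1 (log2 fold change 1.47, SE 0.21, adjusted p = 0.00482 by edgeR). Extl3, proposed as a receptor of Reg proteins, was at 4.32 CPM under the antagonist, 4.13 under retinoic acid, 6.03 in vitamin A-free medium and 5.24 under the day-4 vehicle, against 9.38 and 8.80 at day 1. Its log2 fold change between the time points was -0.62 (SE 0.19, adjusted p = 0.0495 by edgeR), and the call was lost in all 4 other settings (adjusted p of 0.0511 to 0.181).

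Other secreted defence genes did not move as one with the Reg genes. Of 30 antimicrobial and host defence genes, 12 were measured in the antagonist comparison. Of these, 3 were higher and 6 lower, beside 6.92% and 8.38% of all genes. Wfdc2, a secreted protease inhibitor gene, was at 133 CPM under the antagonist and 0.120 CPM under the vehicle, and Zg16, a goblet cell lectin, at 1368 CPM under the antagonist and 84.1 CPM under the vehicle. Lyz1 was at 1.93 CPM under the antagonist and 148 CPM under the vehicle, and the Paneth cell defensin Defa24 at 28.9 CPM under the antagonist and 492 CPM under the vehicle. Under retinoic acid 1 of 10 was higher and 5 were lower, beside 2.80% and 5.24% of all genes. Among the lower genes was the lectin Itln1, with 151 CPM under retinoic acid and 398 CPM under the vehicle. In vitamin A-free medium 1 of 10 was higher, the ribonuclease Ang4 (52.3 CPM, against 15.1 CPM under the vehicle), and 1 was lower, Lypd8, which keeps flagellated bacteria from the mucosa (1526 CPM, against 3537 CPM under the vehicle). Of all genes, 0.183% were higher and 0.196% lower in that medium. The antagonist against retinoic acid had 4 of 11 higher and 5 lower, beside 13.3% and 9.12% of all genes. Between day 4 and day 1, 6 of 22 rose and 2 fell, beside 17.3% and 16.9% of all genes, and the median log2 fold change was 0.68. The polymeric immunoglobulin receptor gene Pigr was at 785 CPM at day 4 and 165 and 172 CPM at day 1 (log2 fold change 2.40, SE 0.14, adjusted p = 0.000771 by edgeR).

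Of 24 transcription factor genes of the gut epithelium and the retinoid pathway, 16 were measured in the antagonist comparison. Of these, 3 were higher and 2 lower, beside 6.92% and 8.38% of all genes. The vitamin D receptor gene Vdr was at 13.8 CPM under the antagonist, 122 under retinoic acid, 124 in vitamin A-free medium, 118 under the day-4 vehicle, and 29.5 and 27.8 under the day-1 vehicle. It rose between the time points (log2 fold change 2.22, SE 0.14, adjusted p = 0.000935 by edgeR). Sox9, a factor of the crypt, was at 7.43 CPM under the antagonist, 15.6 under retinoic acid, 62.1 in vitamin A-free medium and 37.1 under the day-4 vehicle. Under retinoic acid 0 of 15 were higher and 1, Sox9, was lower, beside 2.80% and 5.24% of all genes. In vitamin A-free medium 0 of 16 passed. The antagonist against retinoic acid had 3 of 16 higher and 1 lower, beside 13.3% and 9.12% of all genes. Between day 4 and day 1, 6 of 23 rose and 2 fell, beside 17.3% and 16.9% of all genes. Hnf4g, a nuclear receptor gene of enterocytes, was at 143 CPM at day 4 and 46.0 and 54.5 CPM at day 1 (log2 fold change 1.69, SE 0.16, adjusted p = 0.00205 by edgeR).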

How the data were processed

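The authors deposited raw counts of UMIs for every gene and cell. Per the labels' protocols, sorted live cells entered droplet libraries read from the 3-prime end. The submitters' processing notes name bcl2fastq 2.17, Cell Ranger 3.1.0 and GRCm38, with no role given, and 54587 of the 55335 gene IDs (98.6%) are in GENCODE M21. The members and gene lists were chosen with earlier results of these data known.

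Cells needed 500 genes, 1000 UMIs and at most 20% mitochondrial UMIs, which removed 0 barcodes. The barcodes with the highest Scrublet score were removed as doublets, at 0.8% per 1000 barcodes (102 to 249 per library). The pair of day-1 libraries differed by more than sampling noise (chi-square per degree of freedom 76.0 over 12793 genes) and counts as 2. UMIs were summed per library. Ratios between single libraries carry exact 95% conditional intervals and no test. The 2-fold rule used a pseudocount of 5 CPM and a floor of 10 CPM. Day 4 was tested against day 1 with edgeR 4.0.16 (quasi-likelihood, TMM, filterByExpr, adjusted p under 0.05, R 4.3.3). The procedure was tested on simulated data. Clusters (scanpy 1.11.5, 2000 variable genes without Reg genes, 30 components, 15 neighbours, Leiden resolution 1) were named only from listed markers. Named genes were the Reg genes, up to 4 genes of each list per comparison with the largest log2 ratio, a few pathway genes chosen after their values were seen (Stat3, Myd88, Extl3), and the 5 genes most correlated with each member, without predicted genes.

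Alternatives were TMM or DESeq2 1.42.0 size factors, the DESeq2 Wald test, all deposited barcodes, no low-count filter, a mean of per-cell CPM, a pseudocount of 1 CPM, no floor, thinning to 3000 UMIs or none, Leiden resolution 0.5, leaving out a day-1 library and, added after seeing the data, leaving out the highest cell of each library or class. Sequences came from RefSeq, and pairwise identity was computed with Biopython 1.88.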

Additional observations from a re-analysis of the deposited data

How the results depend on the processing

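No paired analysis was possible because the groups share at most 1 replicate number. Signs were recomputed for the Reg genes and for named genes of the lists, and other genes were only counted. Of those recomputed, no gene that was at least 2-fold apart or past the test changed sign under the alternatives run. The split of higher and lower genes over all genes did turn, as given below. Of 63 counts recomputed, 58 stayed within 1.5 times. Of the recomputed values of the 5 Reg genes, 147 moved within their spread or counting interval, 68 moved further and 1 lost its call. For genes of the other lists these numbers were 348, 126 and 17. With a pseudocount of 1 CPM, 993 genes were at least 2-fold apart between retinoic acid and the vehicle in place of 641, and 51 in place of 31 between vitamin A-free medium and the vehicle. With TMM or with DESeq2 size factors, 0 Reg genes in place of 1 passed 2-fold in vitamin A-free medium, since Reg4 fell short. Without filterByExpr, 3971 genes (2132 higher, 1839 lower) were called between day 4 and day 1 in place of 6019, and the DESeq2 Wald test called 4916. Leaving out either day-1 library gave 1331 to 1800 genes at least 2-fold apart in place of 1562, and 4 to 5 Reg genes in place of 5. Another scaling turned the split of higher and lower genes: under retinoic acid against the vehicle it was 223 to 418 by totals, 449 to 124 with TMM and 485 to 109 with DESeq2 size factors. For the antagonist against retinoic acid the split was 1087 to 747 by totals, 736 to 1068 with TMM and 706 to 1109 with DESeq2 size factors, and for vitamin A-free medium 15 to 16, 10 to 31 and 10 to 32. Without the cell highest in each gene, or with a pseudocount of 1 CPM, Reg4 also counted as lower under retinoic acid, which gave 3 Reg genes in place of 2. At Leiden resolution 0.5 the highest cluster had 1099 CPM of Reg1 in place of 4899, and the highest Reg4 cluster was unchanged at 6054 CPM. Depth limits Reg3a most, with 6 UMIs under the antagonist. Without the highest cell of each library, Reg4 values in secretory cells moved most, as given beside them.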
